A study of Bos grunniens with 18 samples.

Results

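Toll-like receptors (TLRs) were followed in the whole blood of yaks (*Bos grunniens*) across 3 reproductive stages. The members were the rows of the deposited expression table whose gene name was one of *TLR1* to *TLR10*. Of the 10 names, 8 were carried by a row, which gave 8 of the 20607 genes in the table. These were *TLR1*, *TLR2*, *TLR4*, *TLR5*, *TLR6*, *TLR7*, *TLR9* and *TLR10*, and all 8 passed the filter on low counts.

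The blood came from adult female yaks in anestrus (the Y-A group), in estrus (the Y-E group) and in pregnancy (the Y-P group), with 6 libraries per stage and 18 in all. The study's methods describe 6 cows of an artificially inseminated herd whose samples were tracked through the stages, with estrus synchronized by a progesterone pessary, the prostaglandin analog cloprostenol and a gonadotropin-releasing hormone. The labels name no other agent and no genotype, and they do not say which libraries came from the same animal, so p-values measure the spread between these samples. Whole blood holds neutrophils, monocytes, lymphocytes, platelets and young red cells together, so that fewer cells of a type and less RNA per cell cannot be told apart.

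Toll-like receptors are membrane proteins of innate immune cells that recognize molecules shared by many microbes. The receptors of the cell surface read lipoproteins, lipopolysaccharide and flagellin, and those of the endosome read nucleic acids. Most of them signal through the adaptor MyD88 and a chain of kinases to NF-kappa B and interferon regulatory factors, which switch on cytokine genes. In blood they are carried mainly by neutrophils, monocytes, dendritic cells and B cells.

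Total counts ran from 30247267 to 48401076 per library, at which a count of 3, the upper limit that a count of 0 allows, equals 0.0620 to 0.0992 CPM, for counting error only. CPM is the usual scaling of a gene's counts to the total of its library, here with edgeR's TMM factor. The 8 members had at least 46 counts in every library. Y-E replicate 6 stood apart from its group. Its hemoglobin genes took 8.36% of all counts, against 0.0899% to 0.713% in the other Y-E libraries and 3.10% to 16.7% in the Y-A group. Values without it are given beside the results that it moves most.

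*TLR6*, *TLR1* and *TLR10* lie in this order on the forward strand of chromosome 6, with no other gene of the table between them, at 65532463 to 65534853, 65551763 to 65553757 and 65567968 to 65571369 in the coordinates of the deposited table. They belong to 1 receptor subfamily, so some reads could fit more than 1 of them. The paper states that only uniquely mapped reads went into its further analysis. How such reads affected the counts of these genes was not tested. *TLR2*, the partner of TLR1 and TLR6 in lipoprotein recognition, lies on chromosome 16 at 11311240 to 11338254. *TLR4*, the lipopolysaccharide receptor, lies on chromosome 7 at 45939154 to 45950495, and *TLR5*, the flagellin receptor, on chromosome 14 at 21691077 to 21693692. *TLR9*, the receptor of unmethylated CpG DNA, lies on chromosome 22 at 13814802 to 13818505. *TLR7*, the endosomal receptor of single-stranded RNA, is placed at 18285203 to 18303404 on a sequence that the table calls Y, although the animals were female. The gene lies there beside *PRPS2*, the same neighbor that the RefSeq annotation of the assembly Bosgru_T2T1.0 gives it. No member overlaps another gene of the table.

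Per length, the 8 members formed a graded series, with its widest step, as a ratio, near the lower end. In mean FPKM (fragments scaled to gene length and library size) over the 18 libraries, *TLR1* stood at 39.7 and *TLR4* at 36.7, followed by *TLR2* at 22.8, *TLR6* at 18.8, *TLR7* at 14.6 and *TLR10* at 10.6. *TLR9* and *TLR5* lay far below them, at 2.01 and 1.13 FPKM. The order by mean FPKM was the same in the Y-A group and the Y-E group. In the Y-P group *TLR6* came before *TLR2*, at 22.7 ± 8.27 FPKM (SD, n = 6) against 19.2 ± 6.29 FPKM.

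**Figure D1:**
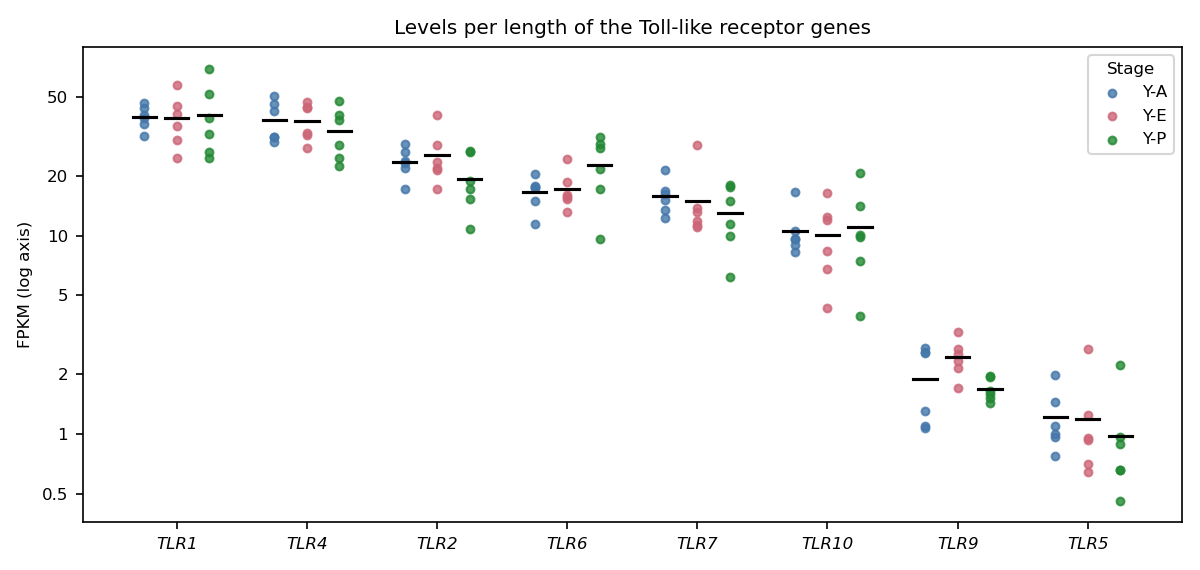
Deposited FPKM of the 8 Toll-like receptor genes on a log axis, with 1 point per library, 6 libraries per stage and a black line at each stage mean. *TLR1* and *TLR4* lie highest in the mean, with a lowest library of 22.4 FPKM, and overlap with *TLR2*, which reaches 40.6 FPKM. *TLR9* and *TLR5* lie lowest, with a highest library of 3.27 FPKM.

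Neighbors in this order were compared within each stage by a two-sided exact permutation test that flips the sign of the log2 FPKM difference in each library. Over 21 such comparisons the smallest possible p is 0.0312. After Benjamini-Hochberg adjustment a comparison could pass only if most of the 21 reached that p. The lowest adjusted p was 0.109 and none passed, so the test cannot decide on any single step. The pairs were also chosen by mean FPKM in the same libraries. The widest step lay between *TLR10* and *TLR9*, which kept this order in 6 of 6 libraries of each stage, with ratios of 5.90 (Y-A), 3.83 (Y-E) and 5.81 (Y-P). *TLR4* was above *TLR2* in 6 of 6 libraries of Y-A and 5 of 6 of Y-E. *TLR1* and *TLR4* did not hold a fixed order, since *TLR1* was the higher of the pair in 3 of 6 libraries of Y-A, 3 of 6 of Y-E and 4 of 6 of Y-P.

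Between anestrus and estrus no Toll-like receptor gene passed the test. Differential expression was tested with edgeR's quasi-likelihood test over all 18 libraries, and a gene was called at a Benjamini-Hochberg adjusted p under 0.05 over the 14508 genes tested. In the Y-E vs. Y-A comparison 0 of 8 members were called, where 0.0207% of all tested genes were, and 0 of 8 had an unadjusted p under 0.05, against 6.20% of all tested genes. DESeq2 called 0 members as well, against 0.462%, but it gave *TLR5* and *TLR9* no adjusted p, so these could not be called. The log2 fold changes of the members ran from -0.12 for *TLR7* to 0.36 for *TLR9*, and their median was -0.05, beside -0.01 over all tested genes. Without Y-E replicate 6 the lowest values were -0.44 for *TLR5* and -0.39 for *TLR7*, *TLR9* stood at 0.46, and the median was -0.14, with 7 of 8 below 0 and again 0 of 8 called.

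In pregnancy, 7 of the 8 genes lay below both other stages and *TLR6* lay above them, yet none passed the test. In the Y-P vs. Y-A comparison 0 of 8 members were called, against 5.83% of all tested genes, and 3 had an unadjusted p under 0.05 (*TLR2*, *TLR4* and *TLR7*), where 22.7% of all tested genes did. In the Y-P vs. Y-E comparison 0 of 8 were called, against 14.4% of all tested genes, and 2 had an unadjusted p under 0.05 (*TLR2* and *TLR9*), where 29.3% of all tested genes did. DESeq2 called 0 members and 10.4% of the tested genes in Y-P vs. Y-A, and 2 members and 19.2% of the tested genes in Y-P vs. Y-E. Adjusted p ran from 0.137 to 0.790 in the former comparison and from 0.0506 to 0.920 in the latter. The members' median log2 fold change was -0.40 against Y-A and -0.39 against Y-E, beside 0.03 and 0.04 over all tested genes. The 2 comparisons share the Y-P libraries. In 0 of 8 members did the libraries of 1 stage lie entirely apart from those of another, which 0.303% of all tested genes did in Y-E vs. Y-A, 3.56% in Y-P vs. Y-A and 6.03% in Y-P vs. Y-E.

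The direction depended in part on the scaling. Scaled by library size alone, the median of all tested genes stood at 0.19 against Y-A and 0.18 against Y-E, and the members' medians at -0.22 and -0.23. *TLR1* and *TLR10* then lay above 0 in Y-P vs. Y-E, at 0.01 and 0.07, and 7 of 8 members still lay below the median of all tested genes. Without Y-E replicate 6 the members' median in Y-P vs. Y-E was -0.10, with 7 of 8 below 0, and in Y-P vs. Y-A it was -0.40.

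**Figure D2:**
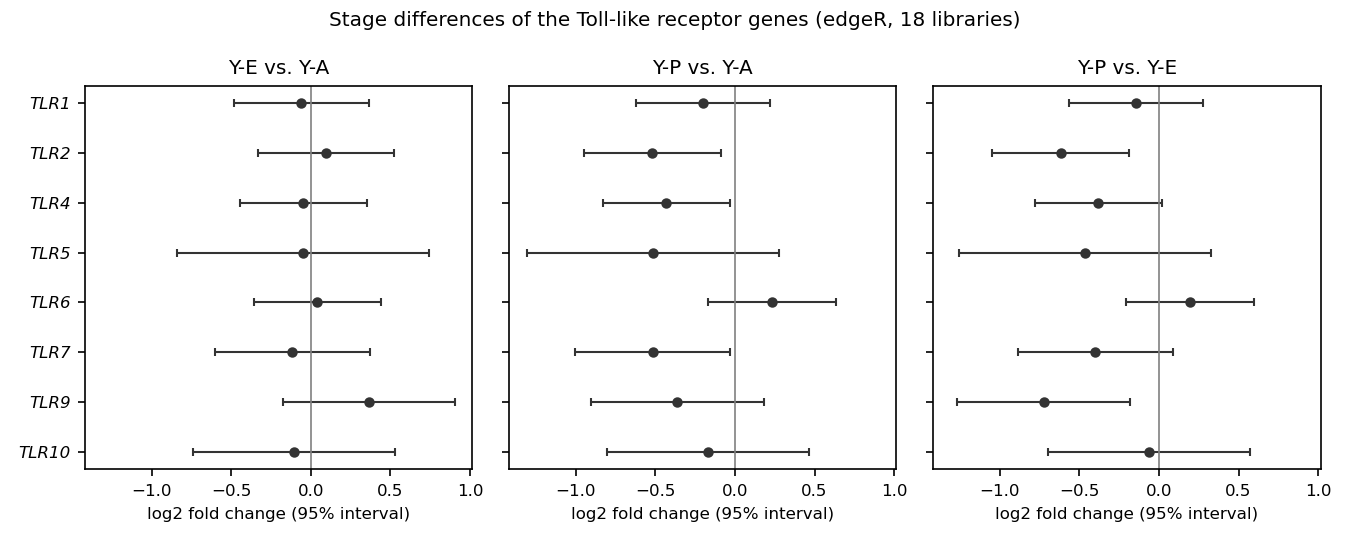
Log2 fold changes of the 8 genes in the 3 comparisons, from the edgeR fit over 18 libraries, with bars for the 95% interval. In both pregnancy comparisons 7 of 8 points lie left of 0, and *TLR6* lies right of it. Intervals that leave out 0 belong to *TLR2*, *TLR4* and *TLR7* in Y-P vs. Y-A and to *TLR2* and *TLR9* in Y-P vs. Y-E.

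Among the surface receptors, *TLR2* showed the lowest unadjusted p in both pregnancy comparisons. Its lowest, median and highest levels were 89.6, 128 and 158 CPM in Y-A, then 84.8, 125 and 207 in Y-E, and 54.4, 85.4 and 119 CPM in Y-P. All 6 Y-P libraries lay below the median of either other stage, though the groups overlapped, and each Y-P library was below the Y-A library of the same number. It was also below the Y-E library of the same number in 6 of 6 cases, though number 1 was level to 2 decimals of log2. The log2 fold change was -0.62 (SE 0.21, edgeR adjusted p = 0.0506) in Y-P vs. Y-E and -0.52 (SE 0.21, edgeR adjusted p = 0.137) in Y-P vs. Y-A. In Y-E vs. Y-A it was 0.10, with a 95% interval of -0.33 to 0.52.

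The Y-P vs. Y-E value of *TLR2* stood just outside the threshold and fell on either side of it with the fit. With the library number as a block it was -0.60 with an adjusted p of 0.0189 from edgeR, and DESeq2 gave -0.62 with an adjusted p of 0.0212. It was also called without Y-A replicate 1 (edgeR adjusted p = 0.0420), Y-A replicate 4 (0.0460), Y-A replicate 6 (0.0382), Y-E replicate 1 (0.0415), Y-E replicate 4 (0.0211), Y-P replicate 1 (0.0338) or Y-P replicate 6 (0.0303). It was not called in the 11 other fits that left out 1 library, among them -0.45 with an edgeR adjusted p of 0.126 without Y-E replicate 6, its highest library. It was also not called by library size alone (-0.45, edgeR adjusted p = 0.114), in the fit of only the 12 libraries compared (-0.60, 0.0902) or by limma (-0.40, adjusted p = 0.173 with a pseudocount of 1 and -0.42, 0.174 with 0.1).

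*TLR1* and *TLR6* form the pairs with TLR2 that read triacylated and diacylated lipoproteins, and neither passed the test. *TLR1* ranged from 80.7 through a median of 100.015 to 110.1 CPM in Y-A, from 64.5 through 93.6 to 134 CPM in Y-E, and from 56.7 through 73.6 to 138 CPM in Y-P. Its Y-P libraries were the most spread, with 4 of 6 below every Y-A library and 1 above them all. The log2 fold change was -0.20 (95% interval -0.62 to 0.22) in Y-P vs. Y-A and -0.14 (-0.57 to 0.28) in Y-P vs. Y-E. Without Y-P replicate 1, its highest library, the values were -0.39 and -0.34, without Y-P replicate 2 they were -0.11 and -0.051, and without Y-E replicate 6 the latter was -0.012.

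*TLR6* was the only member with a positive log2 fold change in both pregnancy comparisons on the TMM scale, while in mean FPKM *TLR1* and *TLR10* also lay above both other stages in Y-P. It ran from 37.1 through 48.8 to 56.1 CPM in Y-A, from 41.0 through 46.6 to 68.6 CPM in Y-E, and from 26.7 through 61.4 to 74.8 CPM in Y-P. In Y-P 3 of 6 libraries exceeded every Y-A library, while Y-P replicate 2 lay below them all. The log2 fold change was 0.24 (95% interval -0.17 to 0.64, edgeR adjusted p = 0.50005) in Y-P vs. Y-A and 0.19 (-0.21 to 0.60, edgeR adjusted p = 0.550) in Y-P vs. Y-E. It was positive in both under each alternative fit that was run, and without Y-P replicate 1 it was 0.14 and 0.10.

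*TLR10*, the remaining member of the cluster on chromosome 6, has no well established ligand and is often described as a dampening receptor of B cells. Its levels were 26.8, 28.1 and 47.4 CPM (lowest, median, highest) in Y-A, then 13.6, 30.1 and 44.6 in Y-E, and 11.0, 24.1 and 49.6 CPM in Y-P. The Y-A libraries lay close together apart from replicate 4, while the other stages were far more spread. The log2 fold change was -0.10 (95% interval -0.74 to 0.53) in Y-E vs. Y-A, -0.17 (-0.80 to 0.46) for Y-P against Y-A and -0.06 (-0.70 to 0.57) for Y-P against Y-E. Without Y-P replicate 1, its highest library, the pregnancy values were -0.42 and -0.31.

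*TLR4* had the highest CPM of the 8 in each stage. It ran from 135 through 177 to 253 CPM in Y-A, from 135 through 189 to 218 CPM in Y-E, and from 102 through 143 to 186 CPM in Y-P. In Y-P 3 of 6 libraries lay below every library of Y-A and of Y-E, and the groups overlapped. Each Y-P library was below the Y-A library of the same number, by 0.01 to 1.30 on the log2 scale. The log2 fold change was -0.43 (SE 0.19, edgeR adjusted p = 0.185) in Y-P vs. Y-A and -0.38 (SE 0.19, edgeR adjusted p = 0.191) in Y-P vs. Y-E.

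*TLR5* was the scarcest member. Its levels were 2.77, 3.29 and 6.51 CPM (lowest, median, highest) in Y-A, then 2.13, 3.04 and 8.25 in Y-E, and 1.21, 2.18 and 5.99 CPM in Y-P. In each stage the highest value belonged to the library numbered 6, and the other 5 libraries of Y-E reached at most 3.71 CPM and those of Y-P 2.98 CPM. Its log2 fold change was -0.52 (95% interval -1.31 to 0.28) in Y-P vs. Y-A and -0.47 (-1.26 to 0.32) in Y-P vs. Y-E, the widest intervals of the 8. Without Y-P replicate 6 the values were -0.91 and -0.86, without Y-A replicate 6 the Y-P vs. Y-A value was -0.34, and without Y-E replicate 6 the Y-P vs. Y-E value was -0.07.

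The endosomal receptors *TLR7* and *TLR9* had negative log2 fold changes in both pregnancy comparisons, though neither passed the main test. *TLR7* ran from 66.1 through 73.1 to 107 CPM in Y-A, from 54.7 through 59.9 to 132 CPM in Y-E, and from 28.3 through 56.2 to 71.0 CPM in Y-P. Y-E replicate 6 was its highest library of all, and 5 of the 6 Y-E libraries lay below every Y-A library. In Y-P vs. Y-A the log2 fold change was -0.52 (SE 0.23, edgeR adjusted p = 0.193), and with the library number as a block it was -0.55 with an edgeR adjusted p of 0.0467. In Y-P vs. Y-E it was -0.40 (SE 0.23, edgeR adjusted p = 0.272), and without Y-E replicate 6 it was -0.13. In Y-E vs. Y-A it was -0.12 (95% interval -0.60 to 0.37), and without Y-E replicate 6 it was -0.39 with an edgeR adjusted p of 0.614.

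*TLR9* had the largest single difference among the 8. Its lowest, median and highest levels were 4.27, 7.04 and 11.6 CPM in Y-A, then 6.34, 9.36 and 13.5 in Y-E, and 4.65, 5.27 and 7.19 CPM in Y-P. The Y-A libraries split into a higher and a lower trio, and the Y-P libraries stayed within the span of the Y-A group. Each Y-P library lay below the Y-E library of the same number, by 0.45 to 0.91 on the log2 scale. The log2 fold change was -0.72 (SE 0.26, edgeR adjusted p = 0.0669) in Y-P vs. Y-E, -0.36 (SE 0.26, edgeR adjusted p = 0.436) in Y-P vs. Y-A and 0.36 (SE 0.26, edgeR adjusted p = 0.980) in Y-E vs. Y-A.

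The Y-P vs. Y-E difference of *TLR9* also fell on either side of the threshold. With the library number as a block the edgeR adjusted p was 0.0465, in the fit of only the 12 libraries compared it was 0.0335, and DESeq2 gave 0.0337. Without Y-E replicate 6, the lowest Y-E library for this gene, the log2 fold change was -0.82 with an edgeR adjusted p of 0.0471. It was not called in the 17 other fits that left out 1 library, with -0.60 and an edgeR adjusted p of 0.161 without Y-E replicate 3, its highest library. It was also not called by library size alone (-0.58, edgeR adjusted p = 0.121) or by limma (-0.35, adjusted p = 0.126 with a pseudocount of 1 and -0.50, 0.156 with 0.1).

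**Figure D3:**
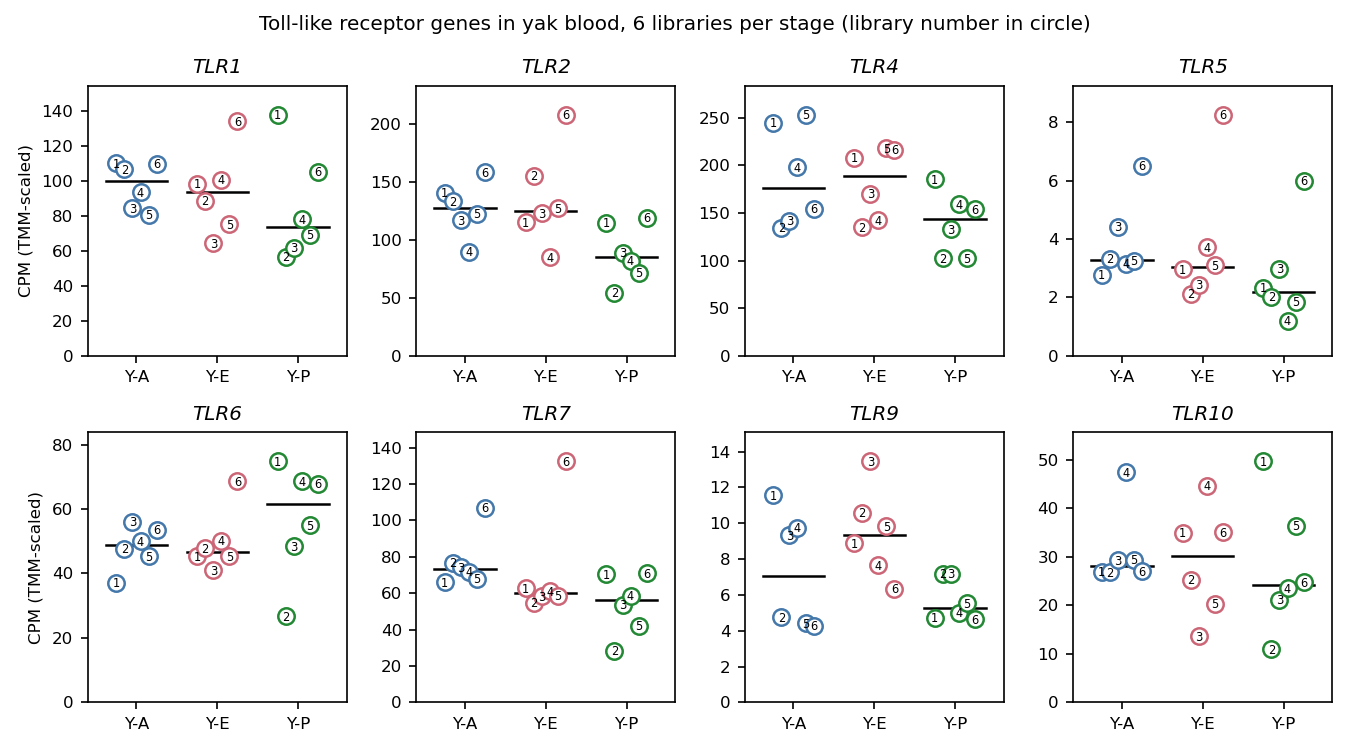
CPM (TMM-scaled, axes from 0) of each gene in the 6 libraries of Y-A, Y-E and Y-P, with the library number inside each circle and a black line at the stage median. The medians of *TLR2* and *TLR4* are lowest in Y-P, at 85.4 and 143 CPM, that of *TLR6* is highest in Y-P, at 61.4 CPM, and library 6 tops *TLR2*, *TLR5* and *TLR7* in each stage.

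The library number went with the level of some of the receptors across stages. The library numbered 6 was the highest of its group in all 3 stages for *TLR2*, *TLR5* and *TLR7*, and the lowest in all 3 for *TLR9*, and the library numbered 2 was the lowest in all 3 for *TLR4*. Thus 5 of 8 members kept the same number at 1 end in every stage, a pattern found in 13.8% of all tested genes. The sources do not state that a number marks a cow. Of the variance of log2 CPM over the 18 libraries, the number accounted for 64.2% in *TLR5*, 63.1% in *TLR1* and 49.1% in *TLR7*. In the other members it accounted for 31.4% to 42.0%. Over all tested genes the median was 32.3% and the upper quartile 46.5%, so these other members lay within the common range. The stage accounted for 37.7% in *TLR2*, 31.9% in *TLR9*, 26.6% in *TLR7* and 25.7% in *TLR4*, and for 4.56% to 17.2% in the other members, beside a median of 17.98%.

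Single libraries also moved several members together. Y-P replicate 2 was the lowest Y-P library for 6 of 8 members, and Y-P replicate 1 the highest for 4 of 8. Y-E replicate 6 was the highest Y-E library for *TLR1*, *TLR2*, *TLR5*, *TLR6* and *TLR7* and the lowest for *TLR9*. The summed counts of the 8 members made up 540 to 573 CPM of the total counts in Y-A, without the TMM factor, a narrow band. In Y-E this was 447 to 757, and in Y-P 311 to 713.

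**Figure D4:**
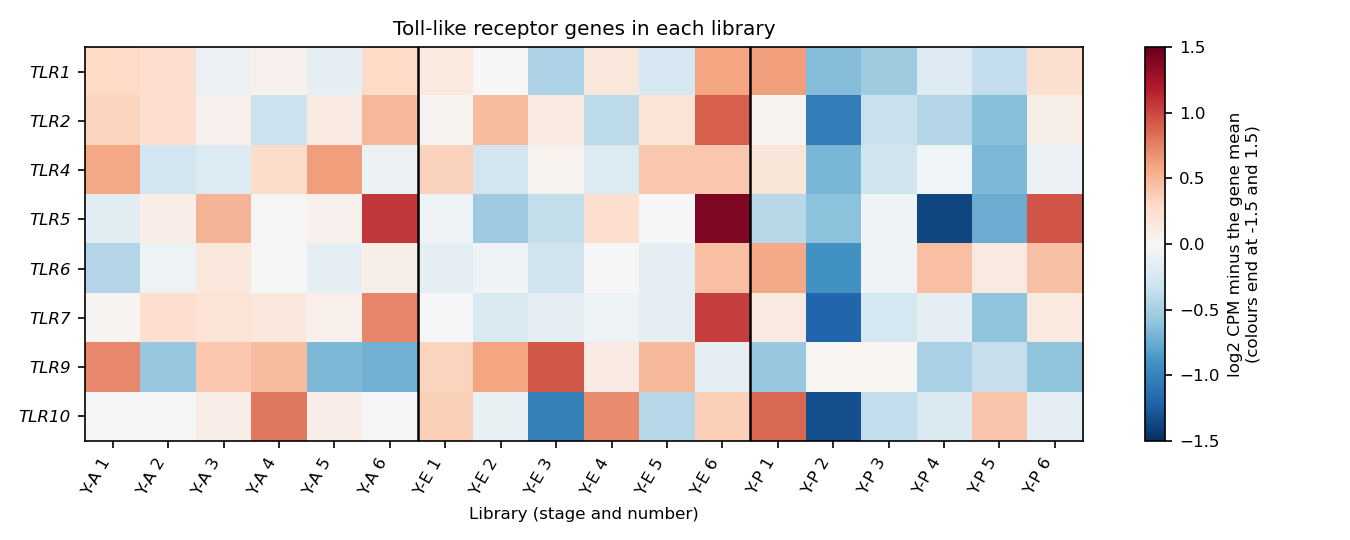
Log2 CPM of each gene minus its mean over the 18 libraries, in colour, by library. Red cells in Y-E replicate 6 and blue cells in Y-P replicate 2 run through most genes, and *TLR9* lies only slightly below its mean in Y-E replicate 6.

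Over the 18 libraries, 23 of the 28 pairs of members had a positive correlation of log2 CPM, with a median Pearson r of 0.39. *TLR2* and *TLR7* were the closest pair, at 0.82, and *TLR6* and *TLR9* the farthest apart, at -0.49. When each library was taken relative to its stage mean, 21 pairs stayed positive, and the 7 negative ones were exactly the pairs with *TLR9*. *TLR6* and *TLR7* were then the closest, at 0.84. These values share libraries and depth and are given as a description.

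The genes most like each member were sought among 12389 tested genes with a mean of at least 1 CPM, by Pearson r of log2 CPM over the 18 libraries. For *TLR2* they were *PLBD1* (r = 0.92), ENSBGRG00000000179 (0.91) and *STX2* (0.91). For *TLR7* they were *GNAI1* (0.93), *CERT1* (0.92) and *ATRN* (0.91), and for *TLR6* *LRRC40* (0.93), *GABPA* (0.92) and *TMEM41B* (0.91). *TLR1* came closest to *HELB* (0.88), *CFAP97* (0.87) and *FBXO28* (0.87), and *TLR10* to *EXOC1* (0.87), *DCLRE1A* (0.85) and ENSBGRG00000016312 (0.85). *TLR4* came closest to *UGCG* (0.84), *C1orf112* (0.84) and *PTPN9* (0.83), and *TLR5* to ENSBGRG00000000024 (0.86), *GNB4* (0.83) and *CD86* (0.83). For *TLR9* the list held *VPS37C* (0.89), *ZNF526* (0.87) and *CAPNS1* (0.86). No gene appeared in more than 1 of these lists.

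No row carried the name *TLR3* or *TLR8*, but 2 rows known only by an identifier stand where these genes would be. They were picked by their annotation after the table was seen and are not counted among the members. ENSBGRG00000016502, on chromosome 28 at 39811520 to 39881852, is described in the table as toll like receptor 3, the endosomal receptor of double-stranded RNA. It ran from 7.68 to 29.2 CPM in Y-A, from 9.42 to 25.5 in Y-E and from 9.20 to 25.1 in Y-P, with medians of 15.1, 15.1 and 15.2 CPM. The 3 stages overlapped widely, the library numbered 5 was the highest in each, and the log2 fold change was 0.00 between Y-E and Y-A and -0.06 for Y-P against either, with edgeR adjusted p from 0.930 to 0.999.

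ENSBGRG00000019302 lies directly after *TLR7*, at 18342805 to 18345905, and before *TMSB4X*, the place that RefSeq gives to *TLR8* in Bosgru_T2T1.0. The deposited table types it as a pseudogene and gives it no description. Its KEGG orthology entry there is K10170. Its levels were 205, 244 and 275 CPM (lowest, median, highest) in Y-A, then 202, 292 and 361 in Y-E, and 78.6, 130.2 and 193 CPM in Y-P. Every Y-P library lay below every library of the other stages. Here the difference passed the test, with a log2 fold change of -0.83 (SE 0.18, edgeR adjusted p = 0.0125) in Y-P vs. Y-A and -1.08 (SE 0.18, edgeR adjusted p = 0.000915) in Y-P vs. Y-E, while Y-E vs. Y-A gave 0.25 (edgeR adjusted p = 0.974). The calls remained in each of the 18 fits that left out 1 library, with -0.97 to -0.72 and -1.22 to -0.97. At 59.9 FPKM in the mean it stood above every named member, and its closest genes were *WDFY3* (r = 0.97), *DOCK8* (0.96) and *CBL* (0.96).

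The other genes of the pathway were read from 7 lists of 96 names, of which 73 had a row and 70 were tested. The list of other innate sensors, with 8 tested genes, lies outside the pathway itself. Its genes are counted among the pathway genes here. In Y-E vs. Y-A 0 of 70 passed. In Y-P vs. Y-A 2 rose and 8 fell, 14.3% of those tested beside 5.83% of all tested genes, of which 2.22% rose and 3.61% fell. In Y-P vs. Y-E 5 rose and 15 fell, 28.6% beside 14.4% of all tested genes, of which 5.77% rose and 8.68% fell. These shares are descriptions, since the lists were chosen with results known. Leaving out 1 library at a time, all 18 fits kept 5 of the 10 calls against Y-A (*NFKB1*, *REL*, *FOS*, *PTGS2* and *NLRP3*) and 14 of the 20 against Y-E. Over all alternatives, other scalings and tests included, 5 of the 10 and 10 of the 20 were kept. By library size alone 4 of the 20 calls against Y-E were lost (*LY96*, *IRAK2*, *IKBKG* and *NOD1*), and by limma with a pseudocount of 1 these and 3 more (*CD36*, *PELI1* and *NOD2*). The least stable calls against Y-E were *LY96*, kept in 6 of 18 fits, *IRF8* in 9, *IRAK2* in 10 and *DUSP1* in 11.

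Among the adaptors, 1 of 4 tested genes passed in Y-P vs. Y-E, where 14.4% of all tested genes did. *MYD88*, the adaptor that most Toll-like receptors share, ran from 171 through 183 to 231 CPM in Y-A, from 180 through 269 to 418 in Y-E and from 108 through 131 to 166 in Y-P, so that every Y-P library lay below the other stages. Its log2 fold change was -1.06 (SE 0.18, edgeR adjusted p = 0.00117) in Y-P vs. Y-E and -0.50 (SE 0.18, edgeR adjusted p = 0.0997) in Y-P vs. Y-A. The median of the list was -0.10 in both comparisons.

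Of 7 tested co-receptors and chaperones, 1 rose and 1 fell in Y-P vs. Y-E, and 0 passed in Y-P vs. Y-A. Of all tested genes 14.4% and 5.83% passed. *LY96*, whose product MD-2 binds lipopolysaccharide together with TLR4, fell by 0.57 on the log2 scale in Y-P vs. Y-E (SE 0.19, edgeR adjusted p = 0.0461), from 38.005 through 50.5 to 58.6 CPM down to 20.5 through 33.8 to 37.9 CPM. *CD36*, a scavenger receptor that assists TLR2, was rare, with 0 to 9 counts in Y-E libraries, 9 to 84 in Y-P and 26 to 111 in Y-A, and it was called in Y-P vs. Y-E with an edgeR adjusted p of 0.0144. *HSP90B1*, the chaperone that folds most of these receptors, was the most abundant gene of the list at 163 FPKM.

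Of 18 tested kinases and ligases, 2 fell in Y-P vs. Y-E and 1 in Y-P vs. Y-A, and none rose. Of all tested genes 14.4% and 5.83% were called in either direction, so this list did not exceed those shares. The list medians were -0.06 and, within 2 decimals, 0. *IRAK2*, a kinase directly behind MyD88, fell by 0.36 on the log2 scale in Y-P vs. Y-E (edgeR adjusted p = 0.0379) and by 0.43 in Y-P vs. Y-A (edgeR adjusted p = 0.0339). By library size alone its adjusted p was 0.199 and 0.141, and the call against Y-A was lost in 5 of 18 fits that left out 1 library. *IKBKG*, the regulatory subunit of the I kappa B kinase complex, fell by 0.35 in Y-P vs. Y-E (edgeR adjusted p = 0.0165, and 0.174 by library size alone).

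The transcription factors went both ways. *NFKB1*, an NF-kappa B subunit, fell by 0.57 in Y-P vs. Y-A (edgeR adjusted p = 0.00263) and by 0.63 in Y-P vs. Y-E (edgeR adjusted p = 0.000443) on the log2 scale, with 146 to 177 CPM in Y-P against 203 to 269 in Y-A and 207 to 264 in Y-E. *REL*, the c-Rel subunit, fell by 0.63 and 0.70 (edgeR adjusted p = 0.00422 and 0.000601). *FOS*, a subunit of AP-1, rose by 2.94 and 2.96 (edgeR adjusted p = 0.00673 and 0.00211), with Y-P libraries spread from 56.5 to 1080 CPM. *IRF8*, a factor of monocytes and dendritic cells, rose by 0.42 in Y-P vs. Y-E (edgeR adjusted p = 0.0400). Thus 2 of 8 fell in each comparison, while 1 rose in Y-P vs. Y-A and 2 in Y-P vs. Y-E. Of all tested genes 5.83% were called in Y-P vs. Y-A and 14.4% in Y-P vs. Y-E.

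Of 12 tested inhibitors, 1 rose in Y-P vs. Y-A, and 2 rose and 2 fell in Y-P vs. Y-E. Of all tested genes 5.83% and 14.4% were called. *DUSP1*, a phosphatase that ends MAP kinase signals, rose by 1.55 and 1.34 on the log2 scale in the respective comparisons (edgeR adjusted p = 0.0307 and 0.0304). With the library number as a block both calls were lost, with edgeR adjusted p of 0.0632 and 0.0768. *SIGIRR*, an inhibitory receptor of the interleukin-1 receptor family, rose by 0.75 in Y-P vs. Y-E (edgeR adjusted p = 0.0211). In the same comparison *TNIP1*, a binding partner of A20, fell by 0.70 (edgeR adjusted p = 0.00282) and *PELI1*, a ubiquitin ligase, by 0.52 (edgeR adjusted p = 0.00574).

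Among the target genes, 4 of 13 tested fell in each pregnancy comparison and 0 rose. Of all tested genes 3.61% fell in Y-P vs. Y-A and 8.68% in Y-P vs. Y-E. *IL1B*, the cytokine interleukin-1 beta and the most abundant of the list at 234 FPKM, fell by 1.004 in Y-P vs. Y-A (SE 0.24, edgeR adjusted p = 0.0208) and by 1.28 in Y-P vs. Y-E (SE 0.24, edgeR adjusted p = 0.00199) on the log2 scale. Its Y-P libraries, at 84.6 to 167 CPM, lay below every Y-A library, the lowest of which was 175 CPM, and below every Y-E library. *IL1A* fell by 1.48 and 1.38, *PTGS2*, the inducible cyclooxygenase, by 1.25 and 1.15, and *IL1RN*, the interleukin-1 receptor antagonist, by 0.70 and 0.89 in the respective comparisons, with edgeR adjusted p from 0.00307 to 0.0279. Against Y-A, the fits that left out 1 library kept the call of *IL1B* in 17 of 18, *IL1A* in 16 and *IL1RN* in 14. Without Y-A replicate 5, its highest library in that group, *IL1A* stood at -1.002 (edgeR adjusted p = 0.0514). The medians of the 13 were -0.30 and -0.27.

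The other innate sensors had the lowest list medians, -0.48 against Y-A and -0.55 against Y-E. *NLRP3*, the sensor of the best known inflammasome, fell by 0.80 (edgeR adjusted p = 0.0118) and 0.75 (edgeR adjusted p = 0.00641) on the log2 scale. *NOD1* and *NOD2*, cytosolic receptors of peptidoglycan fragments, fell by 0.57 and 0.60 in Y-P vs. Y-E (edgeR adjusted p = 0.0205 and 0.0104). Of the 8 tested, 1 passed in Y-P vs. Y-A and 3 in Y-P vs. Y-E, none of them higher. Of all tested genes 5.83% and 14.4% passed.

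**Figure D5:**
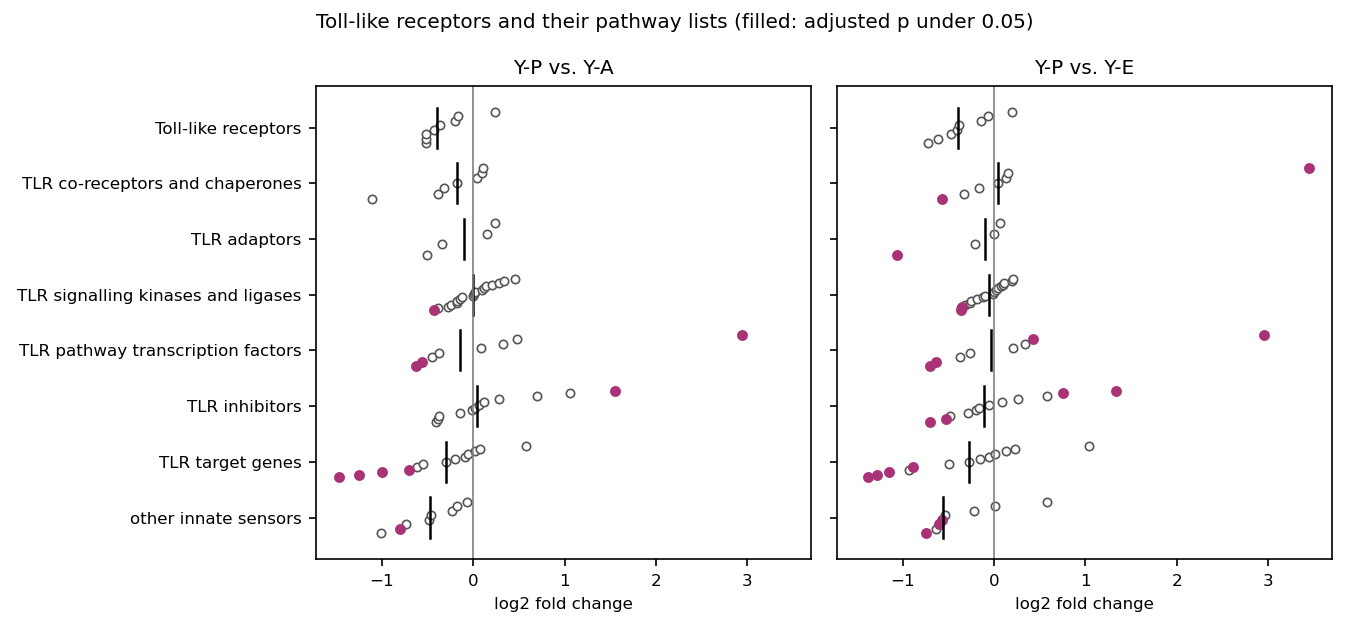
Log2 fold changes of Y-P against Y-A (left) and against Y-E (right) for the 8 receptors and for the tested genes of each pathway list, with 1 point per gene, filled where the edgeR adjusted p is under 0.05, and a black line at the list median. The receptors have no filled point, and the target genes have 4 below 0 and none above 0 in each comparison.

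Some cell type markers also differed between the stages. Over all tested genes, 5.83% were called in Y-P vs. Y-A and 14.4% in Y-P vs. Y-E. Of 6 tested neutrophil markers, 4 fell in Y-P vs. Y-E and 0 passed in Y-P vs. Y-A, and their summed level ran from 4503 to 10298 CPM in Y-A, 5875 to 13606 in Y-E and 3530 to 6907 in Y-P. Their median log2 fold change was -0.64 against Y-A and -1.38 against Y-E. Of 7 monocyte markers 1 fell in Y-P vs. Y-E, near the 14.4% of all tested genes called there. Their sums were 648 to 1078, 566 to 1163 and 459 to 880 CPM. All 7 lay below 0 in both pregnancy comparisons, with medians of -0.41 and -0.51. Beside these, the receptors' medians were -0.40 and -0.39. Of 5 T cell markers 3 rose in each pregnancy comparison, with sums of 806 to 940, 857 to 1053 and 984 to 1692 CPM. No B cell marker passed, with sums of 664 to 2047, 567 to 1731 and 755 to 2209 CPM, while 1 of 3 plasmacytoid dendritic cell markers, *IRF8*, rose in Y-P vs. Y-E. None of 3 NK cell and 2 eosinophil markers passed. All 4 reticulocyte markers fell against Y-A and 3 against Y-E, with sums of 439 to 10502 CPM (Y-A), 92.1 to 4472 (Y-E, the highest in replicate 6) and 39.0 to 122 (Y-P), and 1 of 2 platelet markers fell in each.

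Y-E replicate 6 had the lowest neutrophil sum of its group, at 5875 CPM, and its highest monocyte sum, at 1163 CPM. Its B cell, T cell, NK cell and plasmacytoid dendritic cell sums were also the lowest of the group, at 567, 857, 103 and 107 CPM. The part of these cell types in the levels of the receptors was not tested.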

How the data were processed

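Poly(A) RNA of whole blood was sequenced in 18 libraries. The authors trimmed reads with cutadapt, aligned them to the yak genome with HISAT2 and assembled transcripts with StringTie, for which the submitters' processing notes name versions 1.9, 2.2.1 and 2.1.6. The deposited table holds raw counts per gene, whose counting tool and strand setting are not given in the sources used here, and FPKM values scaled by the authors to length and mapped reads. The paper names its reference genome by species and a version number only. The assembly name behind the coordinates of the deposited table is not given in the sources used here.

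Counts were tested with edgeR 4.0.16 in R 4.3.3 (TMM, filterByExpr, stage as the only factor, two-sided), after a check on simulated data. CPM is TMM-scaled, and likeness used log2 CPM with a prior count of 2. Alternatives used DESeq2 1.42.0, limma 3.58.1 and log2 FPKM with pseudocounts of 1 and 0.1. Figures were drawn with matplotlib 3.10.9.

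Members and gene lists were chosen with earlier results of these data known. Every member present was named, from each list the called genes with the smallest adjusted p (at most 6 per comparison) and the most abundant gene, and the 3 genes most like each member.

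Groups come from the labels. The numbers 1 to 6 come from the sample titles. The study tracked 6 cows, but no source ties a number to a cow. Deviations from the stage means correlated between libraries of the same number at 0.110 to 0.515 for Y-E with Y-A, -0.0492 to 0.370 for Y-P with Y-A and -0.0545 to 0.400 for Y-P with Y-E. The highest correlation with another number was -0.0627 to 0.100, 0.0038 to 0.127 and 0.0335 to 0.148, respectively. The same number was the closest for every number in Y-E with Y-A. It was not for numbers 4 and 5 in Y-P with Y-A or numbers 2 and 5 in Y-P with Y-E. The fit with the number as a block is therefore given beside the named results whose call it changes.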

Additional observations from a re-analysis of the deposited data

Results flagged for a closer look

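In each stage, the highest and lowest of the 6 libraries were compared with the rest for the 8 members, the 2 rows known only by an identifier and the 20 pathway genes called in either pregnancy comparison, 90 groups in all. A value stood apart where its gap to the nearest library exceeded Dixon's 95% critical share of the group's range, which chance gives in about 1 of 20 groups, and 11 values did. The causes were not tested.

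Of the members, *TLR7* stood out in Y-E replicate 6, at 132 CPM against 54.7 to 62.8 in the other Y-E libraries, and in Y-A replicate 6, at 107 CPM against 66.1 to 76.7. *TLR5* stood out in Y-E replicate 6, at 8.25 CPM against 2.13 to 3.71, and in Y-P replicate 6, at 5.99 CPM against 1.21 to 2.98. *TLR6* reached 68.6 CPM in Y-E replicate 6, against 41.0 to 50.2. *TLR10* reached 47.4 CPM in Y-A replicate 4, against 26.8 to 29.4.

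Of the pathway genes, *LY96* stood at 70.6 CPM in Y-A replicate 5, against 30.4 to 42.8, and at 20.5 CPM in Y-P replicate 2, against 32.9 to 37.9. *IL1B* and *IL1A* were high in Y-A replicate 5, at 476 CPM against 175 to 269 and at 19.2 CPM against 4.34 to 7.68. *DUSP1* stood at 426 CPM in Y-A replicate 1, against 238 to 293.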

How the results depend on the processing

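Of the 648 log2 fold changes of the 8 members under an alternative, 607 kept their direction and their side of the threshold, 16 kept the direction and crossed into a call, and 25 changed sign. All changes of sign lay near 0, and unless a sentence says otherwise the cause was not tested. Library numbers were used as a block. With this replicate block the members called were 1 against Y-A (*TLR7*) and 2 against Y-E (*TLR2* and *TLR9*), and the genes called were 14 in Y-E vs. Y-A, 1282 in Y-P vs. Y-A and 2608 in Y-P vs. Y-E, and the block changed no other member's call. A block fit without Y-E replicate 6, chosen after seeing the data, called 1 member against Y-A (*TLR7*) and 1 against Y-E (*TLR2*), 54 genes in Y-E vs. Y-A, and put *TLR6* at -0.030 in Y-E vs. Y-A and *TLR10* at 0.032 in Y-P vs. Y-E. DESeq2 called 2 members in Y-P vs. Y-E, 67 genes in Y-E vs. Y-A and 1516 in Y-P vs. Y-A, and the fit of only the 12 libraries compared called 1 member in Y-P vs. Y-E and 482 genes in Y-P vs. Y-A. For Y-P vs. Y-A, library size alone called 1333 genes, 1075 higher and 258 lower, against 322 higher and 524 lower with TMM, and limma called 2116 (pseudocount 1) and 1928 (0.1). For Y-P vs. Y-E, library size alone gave 1795 higher and 758 lower, against 837 and 1259.

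In Y-P vs. Y-E, *TLR1* and *TLR10* stood at 0.0091 and 0.065 by library size, at 0.014 and 0.078 by limma with a pseudocount of 1, and at 0.013 and 0.081 with 0.1. ENSBGRG00000016502 in Y-E vs. Y-A stood at 0.030 by library size, 0.0050 by DESeq2, 0.00076 without the low-count filter, 0.023 with the block, 0.0068 with 12 libraries, 0.029 and 0.047 by limma and 0.011 in the block without Y-E replicate 6. Against Y-A it stood in Y-P at 0.11 by library size and 0.11 and 0.15 by limma, and against Y-E at 0.080, 0.078 and 0.10.

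Leaving out 1 library at a time gave 3 to 23 genes in Y-E vs. Y-A (the count was 5 without Y-A replicate 1, and leaving out Y-E replicate 6 gave 23), 386 to 1077 in Y-P vs. Y-A (of the Y-P libraries, leaving out replicate 2 gave 386, replicate 4 464 and replicate 5 465, and of the Y-A libraries replicate 5 gave 456 and replicate 6 gave 551) and 1372 to 2305 in Y-P vs. Y-E (1372 without Y-E replicate 5), fewer samples being part of each. Members called were 0 to 1 in Y-P vs. Y-E. In Y-E vs. Y-A the ranges were -0.19 to 0.028 for *TLR1* (0.028 without Y-E replicate 3), -0.066 to 0.20 for *TLR2* (-0.066 without Y-E replicate 6), -0.13 to 0.056 for *TLR4* (above 0 without Y-A replicate 1 or 5 or Y-E replicate 2 or 4), -0.44 to 0.13 for *TLR5* (above 0 without Y-A replicate 6 or Y-E replicate 2, 3 or 5), -0.072 to 0.091 for *TLR6* (below 0 without Y-A replicate 1 or Y-E replicate 6), -0.27 to 0.055 for *TLR10* (above 0 without Y-A replicate 4 or Y-E replicate 3) and -0.17 to 0.24 for ENSBGRG00000016502. In Y-P vs. Y-E they were -0.31 to 0.10 for *TLR10* (above 0 without Y-E replicate 4 or Y-P replicate 2 or 3) and -0.24 to 0.11 for ENSBGRG00000016502, which ranged from -0.24 to 0.18 in Y-P vs. Y-A.

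Alternatives for the pathway lists were chosen after seeing the data. Pathway genes called were 1 in Y-E vs. Y-A (*CD36*) by limma with a pseudocount of 0.1 and by the block without Y-E replicate 6, 19 in Y-P vs. Y-A by DESeq2, 5 to 13 there with 1 library left out (5 without Y-P replicate 2 and 6 without Y-A replicate 5), and 15 to 21 in Y-P vs. Y-E. By the median over libraries, or without Y-E replicate 6, *TLR1* and *TLR4* swapped ranks in Y-E. Low counts limit *TLR5* and *TLR9*, at 46 to 358 and 120 to 413 per library, and DESeq2 gave them no adjusted p in Y-E vs. Y-A.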
